A study of Mus musculus with 4 samples.

Results

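The 36 genes described here form a list for G2/M and mitosis. Most of them are transcribed late in the cell cycle and act between G2 and the end of cell division. All 36 were followed in C3-T+ mouse mammary tumours with both copies of Elf5 intact (Elf5+/+, WT) or with a single intact copy (Elf5+/-, HET). The members are a list of gene symbols, matched to the data by a rule that uses no measured value. The list itself was drawn up with earlier results of these data known. Each member is the row of the deposited count table whose Ensembl identifier belongs to that symbol in the GENCODE annotation of mouse build GRCm38. All 36 were found, each in 1 of 51826 rows. All 36 also passed the filter on low counts, which left 21607 genes for testing.

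Each genotype had 2 libraries from tumours of the mammary gland. All 4 tumours carried C3-T, a transgene that the labels do not spell out further. Before total RNA was extracted, tumours were enzymatically digested and sorted with antibodies to CD45, CD31 and TER119, which mark leukocytes, endothelial cells and erythroid cells. Neither the driver of the transgene nor the age of the mice is given in the labels. Both HET titles bear the number 3211, whereas the WT titles carry 3210 and 4972, and nothing in the labels tells whether the HET tumours grew in separate mice or in the same one. The p-values set the difference between genotypes against the spread between libraries of the same genotype, fitted with the help of all genes. For HET this spread may lie within the same mouse, so the p-values do not reach beyond these 4 samples.

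Transcripts of this kind build up as cells approach mitosis and decline as cells return to G1. In quiescent and G1 cells the DREAM complex, which joins the MuvB core to an RB-like protein and an E2F factor, holds many of these promoters silent. In S and G2 the MuvB core instead works with B-Myb, encoded by Mybl2, and with FOXM1 to activate them. MuvB recognises a short element called the CHR, and the trimeric factor NF-Y binds CCAAT boxes that often lie upstream of it. In tumours the summed level of these transcripts is commonly read as a sign of how many cells are dividing.

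The promoters of the members held the letters of these elements more often than promoters in general. RefSeq promoter sequences (build GRCm38.p6, 250 bases before to 50 bases from the transcript start) were matched by symbol for 30 of the 36 members. The other 6 are Ccna2, Cdc25c, Foxm1, Tpx2, Aurkb and Kif20a. The CHR core was searched as TTTGAA and the NF-Y box as CCAAT, on both strands, so that matches on the opposite strand read TTCAAA and ATTGG. Matches to the 2 motifs can share an end base, and a CCAAT and an ATTGG that overlap each other count as 2 boxes. The sequences below run 5′ to 3′ in the direction of transcription, from 120 bases before to 30 bases from the start, with matches to either motif in capitals. They show Ccnb1 and Ccnb2, which had the lowest and the highest log2 fold change of the members, the kinase Cdk1 that both cyclins activate, the anaphase genes Cdc20 and Ube2c, and Mybl2, which had neither motif. Their positions are Ccnb1 chr13:100786457-100786606, minus strand; Ccnb2 chr9:70421525-70421674, minus strand; Cdk1 chr10:69352883-69353032, minus strand. Cdc20 lies at chr4:118437314-118437463, minus strand, Ube2c at chr2:164769809-164769958, plus strand, and Mybl2 at chr2:163054515-163054664, plus strand.
Ccnb1: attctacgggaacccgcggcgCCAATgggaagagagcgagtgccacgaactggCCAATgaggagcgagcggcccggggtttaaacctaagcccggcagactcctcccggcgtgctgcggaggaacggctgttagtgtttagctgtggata
Ccnb2: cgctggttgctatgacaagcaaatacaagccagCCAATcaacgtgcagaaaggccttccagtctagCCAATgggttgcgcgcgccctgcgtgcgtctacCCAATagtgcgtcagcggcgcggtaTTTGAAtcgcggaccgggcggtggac
Cdk1: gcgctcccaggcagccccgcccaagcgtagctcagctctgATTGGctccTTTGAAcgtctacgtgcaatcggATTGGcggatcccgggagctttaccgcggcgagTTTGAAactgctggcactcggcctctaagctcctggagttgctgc
Cdc20: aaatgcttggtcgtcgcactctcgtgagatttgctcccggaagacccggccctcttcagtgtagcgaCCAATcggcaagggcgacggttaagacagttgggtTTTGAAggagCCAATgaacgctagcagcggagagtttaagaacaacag
Ube2c: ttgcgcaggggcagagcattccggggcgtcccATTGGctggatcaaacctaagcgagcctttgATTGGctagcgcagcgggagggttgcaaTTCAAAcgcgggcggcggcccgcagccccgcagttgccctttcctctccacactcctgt
Mybl2: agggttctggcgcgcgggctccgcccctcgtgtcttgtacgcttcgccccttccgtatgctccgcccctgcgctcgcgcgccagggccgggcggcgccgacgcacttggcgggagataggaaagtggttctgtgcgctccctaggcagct
In the Ccnb2 promoter a row of 3 CCAAT boxes precedes a CHR core whose first base is position 5 after the start. The Cdk1 promoter has ATTGG boxes at -80 and -48 (first base, counted back from the start) and CHR cores at -71 and -15. In Cdc20 the CHR core lies between both CCAAT boxes, and in Ube2c the CHR core reads TTCAAA and both nearby boxes ATTGG. The Ccnb1 promoter held 2 CCAAT boxes, and no TTTGAA was found in its 300 bases.

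Over the 30 promoters, TTTGAA was present in 21 (70.0%), against 20.2% of the 27025 genes with a promoter sequence. Within 50 bases of the start it was present in 19 members (63.3%), against 5.72% of all these genes. At least 1 CCAAT box was found in 23 members (76.7%), against 41.1%, and at least 2 boxes in 16 (53.3%), against 13.3%. Both motifs together occurred in 19 members (63.3%), against 8.97%, and 5 members had neither: Mybl2, Plk4, Nusap1, Mad2l1 and Birc5. Neighbouring CCAAT boxes began 31 to 33 bases apart in 7 members (23.3%), against 1.06% of all genes, a spacing chosen after the positions had been seen. The promoters of 24 G1/S and replication genes held CCAAT in 17 cases (70.8%), close to the share in the members, but TTTGAA in 3 (12.5%). Among 99 other mitosis genes TTTGAA was found in 43 (43.4%) and CCAAT in 57 (57.6%). These matches describe letters in a fixed window and not measured binding.

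**Figure D1:**
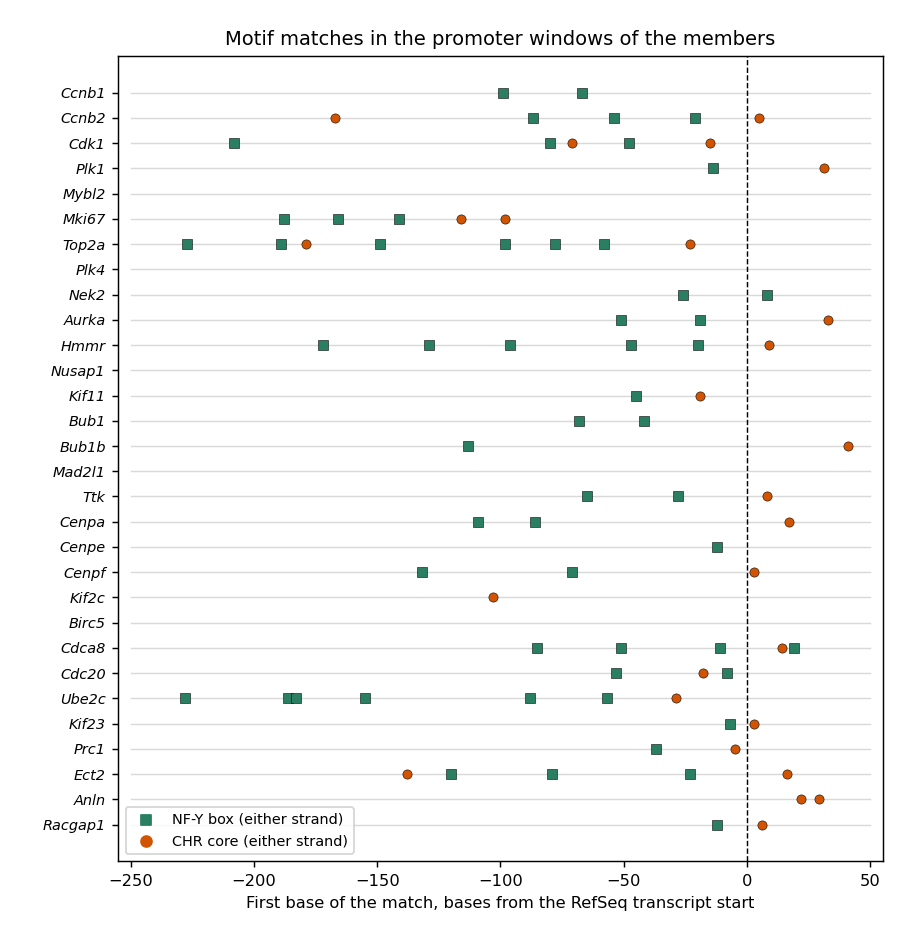
Matches to the NF-Y box (squares) and the CHR core (circles) in the promoters of 30 members, plotted by the first base of each match in bases from the RefSeq transcript start (dashed line). Most circles lie within 50 bases of the start with squares to their left, and the rows of Mybl2, Plk4, Nusap1, Mad2l1 and Birc5 are empty.

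The libraries held 12695132 to 15307939 counts, and levels are given as CPM, which scales counts by library size, after TMM correction of that size for shifts in composition. Elf5, the gene altered by design, stood at 35.6 CPM in WT 1 and 4.70 in the library labelled WT 2, against 5.39 in HET 1 and 10.6 in HET 2, so the library labelled WT 2 lay below both HET libraries. Counts over the whole gene do not show whether a copy is disrupted, and the directions below take both WT labels as given. The library labelled WT 2 also stood apart on the first principal component (62.03% of the variance, 137.9 against -53.0 to -36.4), and 44.5% of genes had no count in it, against 29.9% to 31.3% elsewhere. Epithelial markers were abundant in all 4 libraries (summed over 12 genes, 3840 to 4288 CPM in WT and 2615 to 3138 in HET). The sum was lower in both HET libraries, as were 2 of the 12 markers (15.9% of all genes tested). Summed over 10 genes each, pan-leukocyte markers stood at 25.4 CPM in the library labelled WT 2 and 346 to 414 in the other libraries, macrophage markers at 47.4 and 706 to 1218, and fibroblast markers at 23632 and 4635 to 7645. Endothelial markers (8 genes) summed to 71.8 CPM in that library and 327 to 538 in the others, with Cldn5 at 0 in at least 1 library. T and NK markers (10 genes) summed to 11.3 to 24.3 CPM in WT and 54.3 to 66.7 in HET, with Nkg7 at 0 in at least 1 library. B and plasma markers (7 genes) reached at most 26.7 CPM, and Cd79a, Cd79b, Mzb1 and Blk were at 0 in at least 1 library. The part of these markers in the values below was not tested.

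None of the 36 members passed edgeR's quasi-likelihood test between the genotypes, and with TMM scaling most had a log2 fold change slightly below 0. At a Benjamini-Hochberg adjusted p under 0.05, 0 members and 0 of all 21607 genes tested passed (0% called), and the smallest adjusted p of a member was 0.986. At an unadjusted p under 0.05 there were 0 members, against 817 genes in all (3.78%). DESeq2 called 134 of all genes and 0 members. For 31 of 36 members HET over WT gave a log2 fold change below 0, against 47.3% of all genes tested. The median was -0.22 over the members and 0.04 over all genes tested (-0.04 over protein-coding genes), and members ranged from -0.76 for Ccnb1 to 0.40 for Ccnb2. In bulk RNA, fewer dividing cells and less of these transcripts per cell cannot be told apart.

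Where the members stood relative to 0 depended on the scaling. With scaling to total counts the median over all genes tested was 0.22, a shift of the whole distribution, and the median over the members was -0.05, with 22 members below 0 against 33.6% of all genes. The members' median minus that of all genes was -0.26 under both scalings, as a change of scaling moves all genes nearly alike. Under both, 32 of 36 members lay below the all-gene median, against 50% of genes by construction. Fitted on protein-coding genes only, the distance was -0.19, with 30 members below. With 1 library left out it lay between -0.38, without HET 2, and -0.09, without HET 1, where 22 members were below.

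The members differed less across the libraries than genes in general, and so did other cell cycle genes. The highest library exceeded the lowest by a median of 1.54-fold over the members, from 1.07-fold for Mki67 to 2.48-fold for Racgap1, against 2.15-fold over all genes tested and 1.91-fold over protein-coding genes. The same median was 1.49-fold over 116 other mitosis genes and 1.67-fold over 30 G1/S and replication genes. All genes tested include genes with lower counts than the members, and the part of abundance was not tested. Groups did not overlap for 12 members. These were 11 with both HET libraries below both WT libraries, against 15.9% of all genes, and Cenpf with both above, against 19.6%. With total counts the lower group held 8 members (8.82% of all genes), all of them among those 11, and the higher group held Cenpf, Mki67 and Nek2 (28.1% of all genes). The difference between the genotype means exceeded both differences within a genotype in 8 members, against 21.4% of all genes tested, a share near that background.

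**Figure D2:**
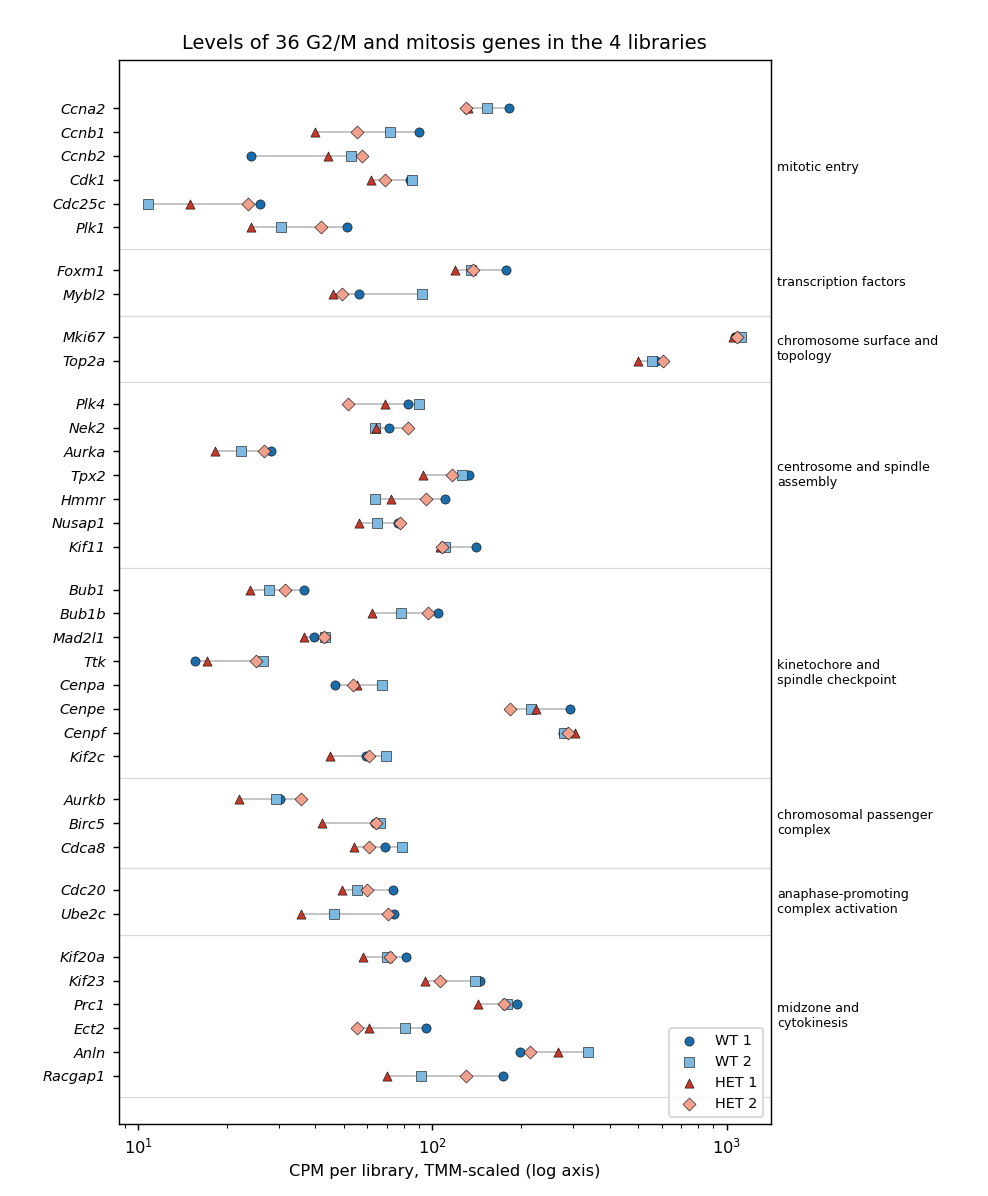
Level of each member in the 4 libraries as TMM-scaled CPM on a log axis, grouped by role. Circles and squares are WT 1 and the library labelled WT 2, and triangles and diamonds are HET 1 and HET 2. HET 1 is the lowest library in 24 of the 36 rows, and Mki67 and Cenpf are nearly the same in all 4 libraries.

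Cyclins and kinases that drive mitotic entry held both extremes of the fold changes. Ccnb1 (chromosome 13, 100778650 to 100786570, GRCm38, minus strand) encodes cyclin B1, the main activator of the kinase Cdk1. It stood at 89.9 CPM in WT 1 and 71.7 in the library labelled WT 2, against 40.0 in HET 1 and 55.6 in HET 2. Both HET libraries were below both WT libraries, with a log2 fold change of -0.76 ± 0.32 (SE, n = 2 libraries per genotype here and below) and an unadjusted edgeR p of 0.0533, the smallest of the members. Cdk1 was at 83.8 CPM in WT 1 and 85.5 in the library labelled WT 2, against 61.99 in HET 1 and 68.9 in HET 2. The WT values differed by less than 2 CPM, the HET values were lower, and the log2 fold change was -0.37 ± 0.27 (SE). Ccna2, which encodes the cyclin of S phase and early mitosis, also had both HET libraries below both WT libraries (log2 fold change -0.35). Ccnb2, the gene of the related cyclin B2, did not follow Ccnb1. Its level was 24.3 CPM in WT 1 and 52.7 in the library labelled WT 2, against 44.2 in HET 1 and 57.7 in HET 2, with WT 1 alone low and a log2 fold change of 0.40 ± 0.43 (SE). Cdc25c, the phosphatase that removes inhibitory phosphates from Cdk1, was at 25.9 CPM in WT 1 and 10.8 in the library labelled WT 2, against 15.1 in HET 1 and 23.7 in HET 2. Its genotypes overlapped widely, and its 95% interval ran from -1.18 to 1.33 on the log2 scale. Exons of Cdc25c overlap Gm3550 on the opposite strand over 12.7% of their length, and Gm3550 had 62 to 197 counts per library, against 152 to 326 for Cdc25c. The kinase gene Plk1 had a log2 fold change of -0.31 ± 0.42 (SE), with overlapping groups.

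Both transcription factor genes had log2 fold changes below 0 under every scaling. Mybl2 (chromosome 2, 163054687 to 163084688, plus strand) stood at 56.2 CPM in WT 1 and 92.3 in the library labelled WT 2, against 45.8 in HET 1 and 49.2 in HET 2, so that the HET values were close to each other and the WT values were not. Its log2 fold change was -0.64 ± 0.34 (SE, unadjusted edgeR p of 0.106). Without WT 1 it was the member of smallest p (unadjusted p of 0.0209), and WT 1 lay nearer to HET than the library labelled WT 2 did. Foxm1 was at 177 CPM in WT 1 and 135 in the library labelled WT 2, against 120 in HET 1 and 137 in HET 2. Here WT 1 alone was high, and the groups overlapped (log2 fold change -0.29 ± 0.30, SE).

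The MuvB core and its partners outside the members were described from a separate list of 10 genes. Of these 8 had a log2 fold change below 0 (47.3% of all genes tested), 5 had both HET libraries below both WT libraries (15.9%) and 1 had both above (19.6%), with 0 passing. With total counts these numbers were 5 (33.6% of all genes), 2 (8.82%) and 1 (28.1%). With TMM the gene with both HET libraries above both WT libraries was Rbl2, which encodes the RB-like protein p130 of the DREAM complex. It stood at 22.4 CPM in WT 1 and 27.99 in the library labelled WT 2, against 42.0 in HET 1 and 46.5 in HET 2, a log2 fold change of 0.81 ± 0.30 (SE, unadjusted edgeR p of 0.0345). Rbbp4, a histone-binding MuvB subunit, was at 155 CPM in WT 1 and 174 in the library labelled WT 2, against 110 in HET 1 and 98.2 in HET 2 (log2 fold change -0.66).

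The most abundant members were also among the most even. Mki67 (chromosome 7, 135689784 to 135716361, minus strand), which encodes the Ki-67 protein that coats mitotic chromosomes, stood at 1068 CPM in WT 1 and 1117 in the library labelled WT 2, against 1049 in HET 1 and 1083 in HET 2. Its log2 fold change was -0.04 ± 0.32 (SE), with a 95% interval from -0.82 to 0.75, and it turned to 0.14 with total counts. Top2a, the topoisomerase that untangles sister chromatids, was at 574 CPM in WT 1 and 559 in the library labelled WT 2, against 501 in HET 1 and 607 in HET 2. Both extremes of Top2a were HET libraries, and its log2 fold change of -0.03 ± 0.31 (SE) likewise turned to 0.14 with total counts. Per kilobase of transcript Top2a and Mki67 were level at 107.3 CPM per kb (mean of 4 libraries), ahead of Birc5 (62.4), Ube2c (58.7) and Prc1 (57.1). The lowest were Bub1 (8.79), Ttk (7.37) and Mad2l1 (5.38, with a transcript length of 7.56 kb). All act in the spindle checkpoint, but the checkpoint gene Bub1b stood at 23.2. Of the members' summed level Mki67 supplied 21.2% in WT 1 and 23.1% in the library labelled WT 2, against 25.1% in HET 1 and 23.3% in HET 2.

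Among the 7 centrosome and spindle assembly genes, 6 had a log2 fold change below 0, although Aurka, Hmmr and Nusap1 turned above 0 with total counts. Plk4, the kinase that starts centriole duplication, stood at 82.3 CPM in WT 1 and 90.2 in the library labelled WT 2, against 68.9 in HET 1 and 51.6 in HET 2. Both HET libraries were below both WT libraries (log2 fold change -0.52 ± 0.30, SE). Tpx2, the activator and targeting factor of Aurora A, was at 134 CPM in WT 1 and 126 in the library labelled WT 2, against 92.9 in HET 1 and 116 in HET 2. These groups did not overlap either (log2 fold change -0.31 ± 0.29, SE), but with total counts they did. Hmmr, a microtubule-associated protein of the spindle, had the largest p of the group: WT 1 (111 CPM) and HET 2 (95.1) were high, and the library labelled WT 2 (63.7) and HET 1 (72.4) were low. The kinesin Kif11, which pushes spindle poles apart, had a log2 fold change of -0.22 with no overlap between groups, but with total counts the groups overlapped and the log2 fold change was -0.05. Aurora A kinase (Aurka, -0.17), Nusap1 (-0.08) and the centrosomal kinase Nek2 (0.12) overlapped between genotypes.

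Of the 8 kinetochore and checkpoint members, 7 overlapped between the genotypes, against 13940 of all 21607 genes tested. In this role 0 had both HET libraries below both WT libraries (15.9% of all genes) and 1 had both above (19.6%). Cenpe, a kinesin that carries chromosomes to the spindle equator, stood at 294 CPM in WT 1 and 215 in the library labelled WT 2, against 225 in HET 1 and 184 in HET 2. WT 1 was the high library, and the other values were near each other (log2 fold change -0.32 ± 0.32, SE). Kif2c, the kinesin that removes faulty attachments, was at 59.6 CPM in WT 1 and 69.4 in the library labelled WT 2, against 45.0 in HET 1 and 60.9 in HET 2. Only HET 1 lay below the rest (log2 fold change -0.28 ± 0.30, SE). The checkpoint kinase gene Ttk was at 15.7 CPM in WT 1 and 26.5 in the library labelled WT 2, against 17.2 in HET 1 and 25.2 in HET 2. Each genotype held 1 low and 1 high library, and the log2 fold change was 0.01 ± 0.41 (SE). Cenpf, a large kinetochore-associated protein, was the most even after Mki67 and the 1 member higher in both HET libraries: 278 CPM in WT 1 and 280 in the library labelled WT 2, against 304 in HET 1 and 289 in HET 2 (log2 fold change 0.09). The checkpoint genes Bub1 (-0.22), Bub1b (-0.20) and Mad2l1 (-0.06) and the centromeric histone gene Cenpa (-0.07) overlapped between genotypes, and Mad2l1 and Cenpa turned above 0 with total counts.

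The chromosomal passenger complex corrects attachments and later guides cytokinesis, and its 3 members all had their lowest value in HET 1. Cdca8, which encodes borealin, stood at 69.1 CPM in WT 1 and 79.0 in the library labelled WT 2, against 54.0 in HET 1 and 60.8 in HET 2. Its groups did not overlap (log2 fold change -0.37 ± 0.28, SE). Birc5, the gene of survivin, was at 63.8 CPM in WT 1 and 66.2 in the library labelled WT 2, against 42.1 in HET 1 and 64.4 in HET 2. The kinase gene Aurkb was at 30.5 CPM in WT 1 and 29.4 in the library labelled WT 2, against 22.01 in HET 1 and 35.8 in HET 2. For both genes HET 1 alone was low, and HET 2 lay within or above WT. Their log2 fold changes were -0.29 ± 0.32 and -0.05 ± 0.35 (SE), and that of Aurkb turned above 0 with total counts.

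Activators of the anaphase-promoting complex, the ubiquitin ligase that ends mitosis by marking cyclin B and securin, overlapped between genotypes. Cdc20, its mitotic activator, stood at 73.3 CPM in WT 1 and 55.3 in the library labelled WT 2, against 49.2 in HET 1 and 59.8 in HET 2 (log2 fold change -0.24 ± 0.30, SE). Ube2c, the ubiquitin-conjugating enzyme that works with it, was at 74.1 CPM in WT 1 and 46.4 in the library labelled WT 2, against 35.8 in HET 1 and 70.7 in HET 2. Each genotype had 1 high and 1 low library of Ube2c, and the log2 fold change was -0.18 ± 0.43 (SE). The exons of Ube2c overlap Tnnc2 on the opposite strand over 22.8% of their length, but Tnnc2 had at most 9 counts in a library.

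All 6 midzone and cytokinesis genes had a log2 fold change below 0, of which that of Anln turned to 0.03 with total counts. Ect2, the exchange factor that activates RhoA at the division plane, stood at 94.9 CPM in WT 1 and 80.6 in the library labelled WT 2, against 60.8 in HET 1 and 55.6 in HET 2. Both HET libraries were lower (log2 fold change -0.59 ± 0.28, SE, unadjusted edgeR p of 0.0784). Kif23, the kinesin of the centralspindlin complex, was at 145 CPM in WT 1 and 140 in the library labelled WT 2, against 94.0 in HET 1 and 106 in HET 2. Its replicates lay close together and the groups did not overlap (log2 fold change -0.51 ± 0.28, SE). Racgap1, the centralspindlin partner of Kif23, varied most of all members: 174 CPM in WT 1 and 91.1 in the library labelled WT 2, against 70.0 in HET 1 and 130 in HET 2. The scaffold gene Anln, which had the largest p of this role, was at 198 CPM in WT 1 and 338 in the library labelled WT 2, against 267 in HET 1 and 215 in HET 2. WT held both the lowest and the highest value of Anln (log2 fold change -0.15 ± 0.37, SE). The microtubule bundler Prc1 (-0.24) had both HET libraries below both WT libraries with TMM but not with total counts (-0.06), and the kinesin Kif20a (-0.22) had overlapping groups. Exons of Kif20a overlap Cdc23 on the opposite strand over 29.3% of their length, and since the strandedness of the libraries is not given, reads of overlapping antisense genes cannot be told apart. Smaller overlaps of this kind join Ccna2 with Exosc9 (12.5%) and Prc1 with Rccd1 (11.1%).

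**Figure D3:**
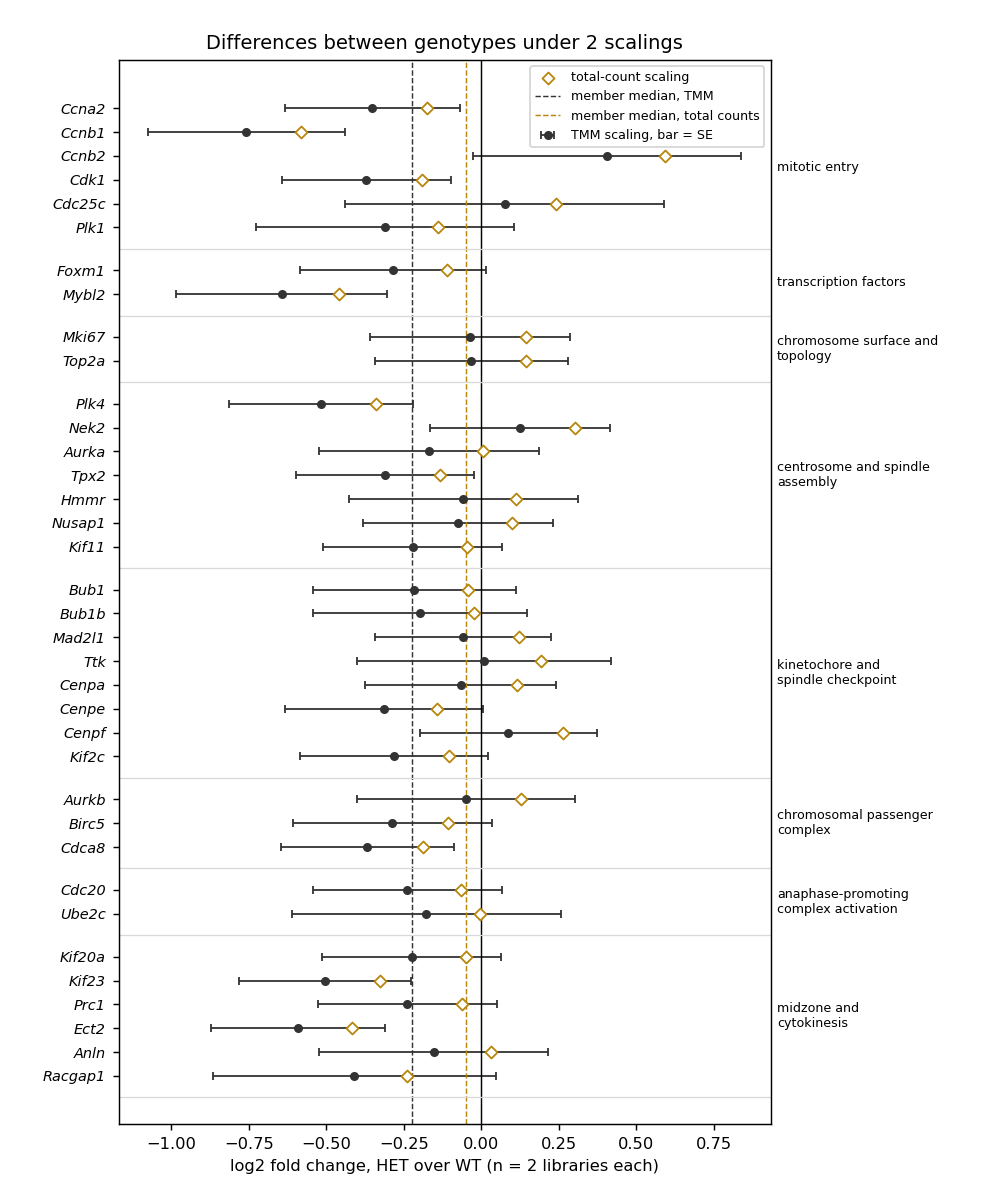
Log2 fold change of HET over WT for each member, grouped by role, with TMM scaling (filled circles, bars are SE, n = 2 libraries per genotype) and with total counts (open diamonds). Dashed lines mark the medians of -0.22 and -0.05. Ccnb1 is the farthest below 0 and Ccnb2 the farthest above, and 9 members lie below 0 with TMM and above 0 with total counts.

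HET 1 was the low library for most members. It held the lowest of the 4 values in 24 of 36, against 23.2% of all genes tested, and in 18 of 36 with total counts, against 17.6%. WT 1 held the highest value in 19 members (24.7% of all genes) and the library labelled WT 2 in 11 (26.6%). HET 2 held it in 5 (23.5%) and HET 1 in 1 (25.2%). With total counts the highest value was in WT 1 for 16 members (19.6%) and in the library labelled WT 2 for 5 (19.0%). On that scale HET 2 held it for 14 (30.4%) and HET 1 for 1 (30.9%). On the log2 scale the members' median deviation from each gene's mean was 0.20 in WT 1 and 0.03 in the library labelled WT 2, against -0.26 in HET 1 and 0.03 in HET 2. HET 2 was thus level with the library labelled WT 2, and the members' median log2 fold change was -0.11 without HET 1 and -0.44 without HET 2. For all genes tested these deviations lay between -0.09 and 0.08.

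**Figure D4:**
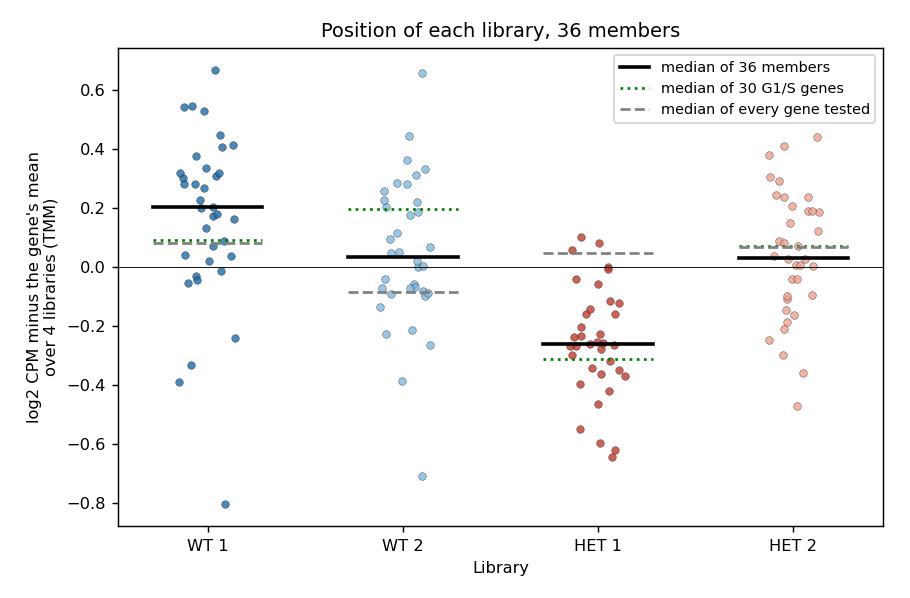
Log2 CPM of each member minus its own mean over the 4 libraries (points), by library, with the median of the 36 members (solid line), of 30 G1/S genes (dotted) and of all genes tested (dashed). Most points of HET 1 lie below 0, and its member median is -0.26. The medians of the library labelled WT 2 and HET 2 are both 0.03.

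Summed over the members, the TMM-scaled level was 5049 CPM in WT 1 and 4831 in the library labelled WT 2, against 4177 in HET 1 and 4640 in HET 2. Both HET sums were below both WT sums, with a log2 ratio of -0.16. As a share of all counts, the members made up 0.483% in WT 1 and 0.443% in the library labelled WT 2, against 0.441% in HET 1 and 0.493% in HET 2. On that scale the genotypes overlapped, with HET 2 the highest library. The summed epithelial markers, at 4288 CPM in WT 1 and 3840 in the library labelled WT 2, against 3138 in HET 1 and 2615 in HET 2, were also lower in both HET libraries, and with total counts they were as well (4099 and 3522 against 3315 and 2776). Of the 12 markers, 2 were lower in both HET libraries (15.9% of all genes) and 1 was higher in both (19.6%). With total counts 1 was lower (8.82%) and 3 were higher (28.1%). The part of these markers in the members' values was not tested.

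Genes of the same machinery outside the members had a similar median. Of 116 other mitosis genes in 6 lists, 91 had a log2 fold change below 0 (47.3% of all genes tested), 41 had both HET libraries below both WT libraries (15.9%) and 6 had both above (19.6%), with 0 passing the edgeR test. Their median of -0.22 became -0.04 with total counts, where 66 were below 0 (33.6% of all genes), 17 had lower HET groups (8.82%) and 14 had higher ones (28.1%). Condensin, cohesin and separase genes had 14 of 19 below 0, with Ncapg2, a condensin II subunit, at 94.1 CPM in WT 1 and 87.7 in the library labelled WT 2, against 60.8 in HET 1 and 52.5 in HET 2. Subunits and partners of the anaphase-promoting complex had 15 of 17 below 0. Ube2s, which extends ubiquitin chains on this complex, stood at 83.9 CPM in WT 1 and 68.3 in the library labelled WT 2, against 41.5 in HET 1 and 54.4 in HET 2. Outer kinetochore and CENP genes had 22 of 29 below 0, with the microtubule-binding subunit Ndc80 at -0.59. Other kinesins and spindle proteins had 18 of 25 below 0, with Gtse1 at -0.78. The entry kinases, phosphatases and inhibitors had 14 of 16 below 0. In that list Cks2, a small binding subunit of Cdk1, had the lowest log2 fold change of the 116 genes (-1.19 ± 0.36, SE, unadjusted edgeR p of 0.0163). It was at 21.8 CPM in WT 1 and 26.2 in the library labelled WT 2, against 9.22 in HET 1 and 11.9 in HET 2.

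G1/S and replication genes gave a median of -0.28, with 25 of 30 below 0 (47.3% of all genes tested), 8 lower (15.9%) and 2 higher (19.6%) in both HET libraries. With total counts the median was -0.10, with 21 below 0 (33.6% of all genes), 4 lower (8.82%) and 2 higher (28.1%). Uhrf1, which maintains DNA methylation at replication forks, stood at 299 CPM in WT 1 and 281 in the library labelled WT 2, against 171 in HET 1 and 166 in HET 2 (log2 fold change -0.78 ± 0.28, SE). The ratio of the members' sum to the G1/S sum, which does not depend on scaling, was 1.503 in WT 1 and 1.37 in the library labelled WT 2, against 1.62 in HET 1 and 1.54 in HET 2. Both HET ratios were above both WT ratios. Mki67 alone supplied 21.2% of the members' sum in WT 1 and 23.3% in HET 2. Without Mki67 the ratios of WT 1 and HET 2 would not be separated in this direction. HET 1 was also the lowest library for 19 of the 30 G1/S genes. Of 10 cell cycle inhibitor genes 7 were below 0 (47.3% of all genes tested), with 0 lower (15.9%) and 1 higher (19.6%) in both HET libraries. With total counts 5 were below 0 (33.6% of all genes), with 0 lower (8.82%) and 2 higher (28.1%). The gene higher with TMM was the antiproliferative factor Btg2, at 235 CPM in WT 1 and 209 in the library labelled WT 2, against 380 in HET 1 and 246 in HET 2. Cdkn1a, which encodes p21, stood at 59.7 CPM in WT 1 and 113 in the library labelled WT 2, against 69.8 in HET 1 and 31.5 in HET 2, with no separation of the genotypes.

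The plot of member fold changes by setting shows these dependencies together. In each of the settings shown their median stands below that of all genes. A change of scaling alone moves members and all genes nearly alike, so those rows are not separate support for each other.

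**Figure D5:**
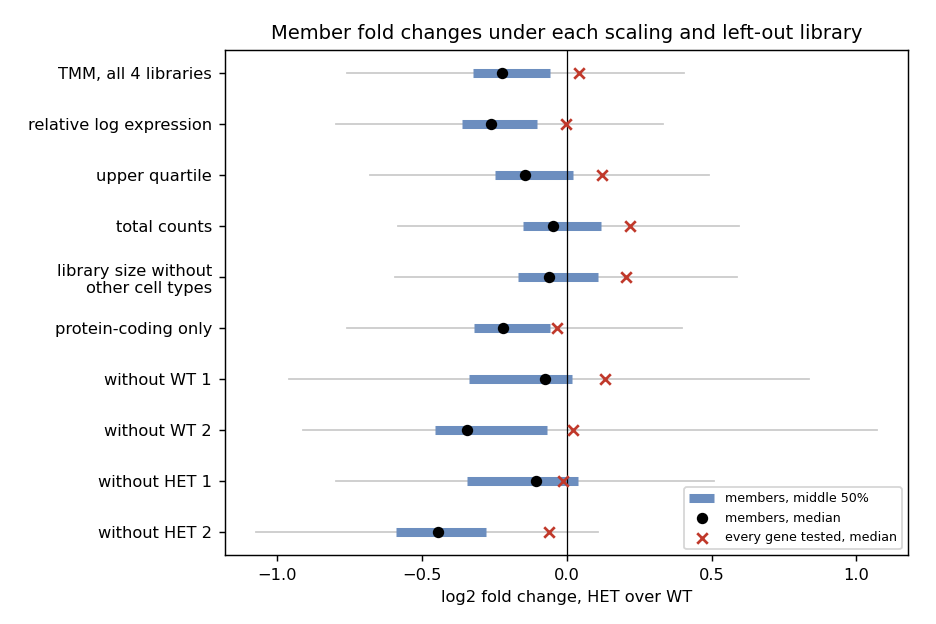
Log2 fold change of HET over WT over the 36 members under each scaling and with each library left out: median (dot), middle 50% (bar) and range (line), with the median of all genes tested (cross). The member median lies left of the cross in every row, by -0.26 in the top row and by -0.09 without HET 1.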

How the data were processed

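Estimated counts per gene were deposited by the authors, who used Salmon and build GRCm38.p5, as the submitters' processing notes record. For the Salmon version, annotation and strandedness: not given in the sources used here. The deposited counts were whole numbers, so rounding changed nothing. Of 51826 identifiers, 51633 matched GENCODE M21, which supplied symbols. The genotypes were compared with edgeR 4.0.16 under R 4.3.3, using filterByExpr, TMM, the quasi-likelihood test and genotype as the only term, adjusted over all 21607 genes (Benjamini-Hochberg, threshold 0.05). Fitted variation between replicates (common coefficient) came to 0.46, on 2 residual plus 4.08 prior degrees of freedom. A count of 0 would allow up to 3 counts (0.196 to 0.236 CPM, counting error only), and the lowest member count was 152. Levels per kilobase use the longest principal GENCODE transcript. The script was tested on simulated counts.

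The members and the lists were chosen with earlier results of these data known, so lists are described by counts and medians without a test. Every member could be named. Values in all 4 libraries are given for the 2 members of smallest p and the 1 of largest p in each role (all members in roles of 3 or fewer), and for up to 2 genes of smallest p per other list. Such values for Ccnb2, Cenpf and Racgap1 were added after they had been seen. Alternatives were relative log expression, upper-quartile and total-count scaling, a library size without other cell types, protein-coding genes only, other filters, DESeq2 1.42.0, limma-voom (limma 3.58.1), an adjusted p under 0.1 and each library left out, with the same genes kept and the lone library assumed to vary like the other genotype. A further marker list is not reported here.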

Additional observations from a re-analysis of the deposited data

How the results depend on the processing

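In every alternative run, 0 members passed, including DESeq2, limma-voom and an adjusted p under 0.1. Over all genes, 134 passed by DESeq2, 324 with no filter beyond 1 count, 657 without WT 1 and 9 without the library labelled WT 2, so the range with 1 library left out was 0 to 657. The members' median log2 fold change was -0.048 with total counts and, with 1 library left out, between -0.44 (without HET 2) and -0.076 (without WT 1). The log2 ratio of their summed CPM was 0.013 with total counts, 0.00082 with the library size without other cell types, and between -0.31 (without HET 2) and -0.13 (without WT 1) with 1 library left out. Members lower in every HET library than in every WT library numbered 18 without WT 1, against 7258 of all 21607 genes tested. There were 23 without the library labelled WT 2 (7253 of all genes), 15 without HET 1 (6388) and 29 without HET 2 (7197). In these runs fewer libraries are compared. Of the 36 members, 18 kept their sign under all 11 alternatives for fold changes, all 18 below 0. The same share over all genes tested was not computed, and the alternatives share most of their data, so this count has no background. Ccnb1 had an unadjusted p under 0.05 by DESeq2 (0.0485), limma-voom (0.0417), relative log expression scaling (0.0451), protein-coding genes only (0.0466) and no filter beyond 1 count (0.0421), and, together with Ccnb2, without the library labelled WT 2 (smallest 0.0235). No paired analysis was possible because the numbers in the titles do not tie a WT tumour to a HET tumour. With 2 libraries per genotype, 95% intervals of single members spanned 1.33 to 2.51 log2 units, so small differences were not detectable.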

Other observations

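Within each library, the count of Ccnb1 divided by that of Ccnb2 does not depend on the scaling. This ratio, chosen after the values had been seen, was 3.70 in WT 1 and 1.36 in the library labelled WT 2, against 0.905 in HET 1 and 0.963 in HET 2. Both WT libraries were above both HET libraries, and the WT libraries differed from each other by more than the library labelled WT 2 differed from HET. Ccnb1 and Ccnb2 were the members of lowest and highest log2 fold change, so a higher ratio in WT was largely built into the choice. The processed pseudogene Ccnb1-ps had 0 counts in both WT libraries, 26 in HET 1 and 2 in HET 2, against 616 and 749 counts of Ccnb1 in HET 1 and HET 2. Ccnb2-ps had 2 counts in WT 1 and 10 in the library labelled WT 2, against 7 in HET 1 and 8 in HET 2. How reads were shared between these genes and their copies is not given in the sources used here.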
